A study of Homo sapiens with 8 samples.

Results

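Transcripts of 10 genes of the ATM and ATR checkpoint (ATM, ATR, CHEK1, CHEK2, TIMELESS, TIPIN, CLSPN, CDC25A, WEE1 and TOPBP1) were examined in PANC1, a human pancreatic cancer cell line, with and without deletion of BAP1 and before and after ionizing radiation (IR). All probe sets annotated to exactly 1 of these symbols were taken, 27 of the 49293 tested, so that the 10 genes stand among 18132 measured genes. A further 2 probe sets that name CHEK2 or TIPIN together with other genes were left out. Expression was measured on 8 Affymetrix PrimeView arrays in 4 groups of 2 arrays. The control group carried the wildtype genotype label and was not treated. The sgBAP1 group had BAP1 deleted with CRISPR/Cas9 and was likewise untreated. The IR group was wildtype and received 10 Gy, and the sgBAP1 + IR group combined the deletion with the same dose, with RNA taken 3 days later. The study's methods describe 1 guide against BAP1 exon 2, transfection, puromycin selection and a non-targeting guide for comparison, but the control labels do not mention a guide. All groups share the PANC1 background, in which the study describes 1 remaining BAP1 copy. Effects of selection or of off-target cutting therefore cannot be told apart from those of the deletion. BAP1 transcripts were not analysed here, so the genotype labels were not checked against the targeted gene.

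The values are log2 expression levels from RMA (robust multi-array average). Array medians lay between 6.116 and 6.152 log2 and lower quartiles between 4.299 and 4.39, and Pearson correlations over all probe sets were 0.998 to 0.9985 within groups and 0.9881 to 0.9952 between them. The 6 ductal carcinoma line markers were the keratins KRT7, KRT8, KRT18 and KRT19, with VIM and CD44, and had gene means of 6.61 to 14.14 log2. VIM was the highest, at 14.21 and 14.2 in control, 14.24 and 14.23 in sgBAP1, 14.04 and 14.1 in IR, and 14.05 and 14.06 in sgBAP1 + IR. KRT7 was the lowest, at 5.93 and 5.83 in control, 6.46 and 6.42 in sgBAP1, 6.62 and 6.74 in IR, and 7.38 and 7.5 in sgBAP1 + IR. The leukocyte marker PTPRC lay between 3.31 and 3.6 on every array. The 6 fibroblast and endothelial markers had group means of 4.49 to 4.53. The 4 measured acinar and endocrine markers had group means of 5.39 to 5.51, the highest being the trypsinogen gene PRSS1 at 6.78 to 7.14. Of 4 leukocyte markers measured, CD68, a lysosomal protein that is not restricted to leukocytes, read 8.28 and 8.12 in control, 9.09 and 9.19 in sgBAP1, 7.65 and 7.5 in IR, and 8.46 and 8.42 in sgBAP1 + IR. The mean of the ductal carcinoma line markers was 11.66 log2 in control, 11.88 in sgBAP1, 12.14 after IR and 12.25 with both. VIM did not share this rise after IR, where it lay below control. The part of these shifts in the results below was not tested. The labels do not tell whether both arrays of a group stem from independent cultures, so the p-values cover no more than the spread of these samples, which may be technical. Changes are log2 differences of group means ± SE from limma (n = 2 arrays per group). A gene, represented by its brightest probe set, rose or fell where the adjusted p over all 49293 probe sets was under 0.05. Whether a member's change also passed 1.5-fold is given beside it.

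ATM and ATR are related kinases at the top of the DNA damage checkpoint. ATM responds to double-strand breaks and phosphorylates the kinase CHEK2. ATR responds to single-stranded DNA coated by replication protein A, is activated by TOPBP1 and, through the mediator CLSPN (claspin) and the TIMELESS-TIPIN dimer at the replication fork, leads to phosphorylation of the kinase CHEK1. Both checkpoint kinases restrain the phosphatase CDC25A, which removes the inhibitory phosphate that WEE1 places on cyclin-dependent kinases. Much of this signaling runs through phosphorylation and protein turnover, which arrays of transcripts do not measure.

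In the sgBAP1 group without IR, TIMELESS and TIPIN, the partners of 1 dimer, differed from control in opposite directions. In sgBAP1 against control cells, TIPIN, CDC25A and WEE1 rose and ATM and TIMELESS fell, while ATR, CHEK1, CHEK2, CLSPN and TOPBP1 did not pass. The 5 of 10 genes that passed stand against 27.9% of all genes (11.9% higher and 16.0% lower). TIPIN and TIMELESS also passed 1.5-fold, as did 4.94% of all genes. Of the 27 probe sets 11 passed, against 25.9% of all probe sets. The median change of the 10 genes was -0.11, against 0 over all genes. The count of 5 fell to 3 without control replicate 1, and to 2 (TIMELESS and TIPIN) without control replicate 2, sgBAP1 replicate 1 or sgBAP1 replicate 2. In bulk RNA, fewer cells of a kind or cell cycle phase and less RNA per cell cannot be told apart.

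After IR alone, CDC25A showed the widest change of the 10 genes. In IR against control cells, ATM and TIPIN rose, TIMELESS and CDC25A fell and 6 genes did not pass. The 4 of 10 stand against 19.8% of all genes (9.22% higher and 10.6% lower), and CDC25A was the 1 member past 1.5-fold, against 3.58% of all genes. Of the probe sets 8 of 27 passed, against 17.4%. The median change was -0.12, against 0 over all genes.

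With deletion and IR combined, 4 members fell and 1 rose. In sgBAP1 + IR against control cells, ATR, CHEK1, TIMELESS and CDC25A fell and TIPIN rose, against 36.6% of all genes that passed (17.4% higher and 19.2% lower). TIMELESS and CDC25A passed 1.5-fold, against 8.01% of all genes. Of the probe sets 12 of 27 passed in either direction, against 33.3% of all probe sets. Of these 10 were lower, several of them probe sets of CHEK1, and the share of all probe sets that were lower was not counted. The median of the 10 genes was -0.17, against 0.03. These 3 comparisons share both control arrays, and their values are therefore not independent of each other.

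Within sgBAP1 cells, IR lowered CDC25A, ATR and WEE1 and raised ATM, the last on 1 of its 5 probe sets. The 4 of 10 stand against 20.5% of all genes (10.0% higher and 10.5% lower). CDC25A alone passed 1.5-fold, against 3.19%, and 6 of 27 probe sets passed, against 19.0%. The median was -0.12, against 0.03 over all genes. The count fell to 1 (CDC25A) without sgBAP1 replicate 1 or sgBAP1 + IR replicate 1, to 2 without sgBAP1 replicate 2 and to 3 without sgBAP1 + IR replicate 2. Among irradiated cells, those with sgBAP1 had lower ATM and TIMELESS, and no member rose in the fit of all 8 arrays (CDC25A did without IR replicate 1, at 0.55). These 2 of 10 stand against 17.3% of all genes (7.27% higher and 10.1% lower). None reached 1.5-fold, against 2.12%, and 4 of 27 probe sets passed, against 15.9%. At an unadjusted p under 0.05 the limma count was 6 of 10, but the share of all genes at that threshold was not counted. The count of 2 dropped to 1 (TIMELESS) without IR replicate 2 or either sgBAP1 + IR array.

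The interaction asks whether the IR change differed between sgBAP1 and wildtype cells. In limma 0 of 10 genes and 0 of 27 probe sets passed, against 0.623% of genes and 0.592% of probe sets. Of the 10 genes 3 had an unadjusted p under 0.05, a threshold at which the share of all genes was not counted. Among the brightest probe sets the largest differences were -0.44 ± 0.08 for TIPIN (adjusted p = 0.069), -0.29 ± 0.07 for WEE1 (adjusted p = 0.123) and 0.29 ± 0.07 for TIMELESS (adjusted p = 0.117). For ATM the difference was -0.02 with a 95% interval of -0.19 to 0.15. For CDC25A it was -0.04, with the wider interval of -0.43 to 0.35, whereas its 2 dim probe sets gave -0.6 ± 0.2 (adjusted p = 0.215) and -0.5 ± 0.15 (adjusted p = 0.173). A p that misses the threshold does not show that the IR response was the same in both genotypes. TIPIN and TIMELESS passed when dim probe sets were left out, and with a mean-variance trend and robust variance so did WEE1 and TOPBP1. The share of all genes passing under these settings was not counted.

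**Figure D1:**
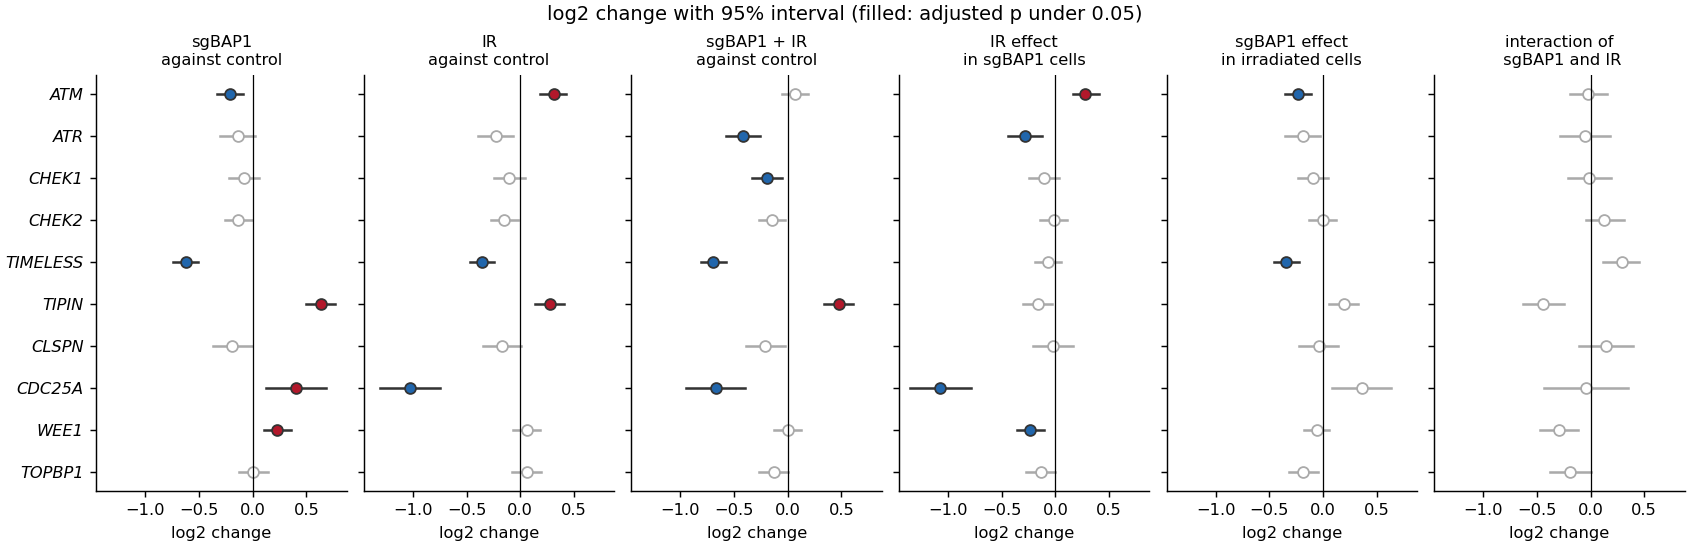
Log2 change (x axis) with its 95% interval for each of the 10 checkpoint genes in the 6 comparisons; filled points have a limma adjusted p under 0.05, red for higher and blue for lower. TIMELESS and TIPIN lie on opposite sides of 0 in all 3 comparisons with control, and CDC25A is at -1.03 after IR and -1.07 for IR in sgBAP1 cells.

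TIMELESS and TIPIN form the fork protection complex, which travels with the replisome and passes the ATR signal to CHEK1. They are shown first, with their promoter sequence, because they had the smallest adjusted p of all members in sgBAP1 cells. TIMELESS (probe set 11719123_a_at) read 9.03 and 9.06 log2 in the control arrays, 8.4 and 8.44 in sgBAP1, 8.68 and 8.7 in IR, and 8.34 and 8.36 in sgBAP1 + IR. The groups did not overlap, with control highest, IR next and both sgBAP1 groups lowest. The change was -0.62 ± 0.05 with sgBAP1 (1.54-fold, adjusted p = 0.000253), -0.36 ± 0.05 with IR (adjusted p = 0.00367) and -0.7 ± 0.05 with both (1.62-fold, adjusted p = 9.97e-05). Between sgBAP1 and sgBAP1 + IR, the lowest neighbors in this order, the change was -0.07 ± 0.05 (95% interval -0.19 to 0.05). Among irradiated cells TIMELESS was lower with sgBAP1, at a log2 change of -0.34 ± 0.05 (adjusted p = 0.00635). These 4 calls held without any single array.

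The second TIMELESS probe set (11719124_at) was dimmer and read 6.08 and 5.77 in control, 5.42 and 5.42 in sgBAP1, 5.56 and 5.73 in IR, and 5.31 and 5.3 in sgBAP1 + IR. It kept the order of the first. It fell with sgBAP1 (-0.5 ± 0.11, adjusted p = 0.012) and with both (-0.62 ± 0.11, adjusted p = 0.0038). Its IR change of -0.28 ± 0.11 did not pass.

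TIPIN (11727081_a_at), which holds TIMELESS at the fork and binds replication protein A, read 9.14 and 9.07 log2 in control, 9.72 and 9.77 in sgBAP1, 9.43 and 9.34 in IR, and 9.58 and 9.58 in sgBAP1 + IR. The order was the reverse of that of TIMELESS for control, IR and the sgBAP1 groups, and no groups overlapped. TIPIN rose by 0.64 ± 0.06 with sgBAP1 (1.56-fold, adjusted p = 0.000389), by 0.28 ± 0.06 with IR (adjusted p = 0.0169) and by 0.48 ± 0.06 with both (adjusted p = 0.000853). The IR change was 0.25 without control replicate 2 and 0.23 without IR replicate 1 and passed in neither case. IR in sgBAP1 cells gave -0.16 (95% interval -0.3 to -0.03, adjusted p = 0.0973) and sgBAP1 in irradiated cells 0.2 (0.06 to 0.33, adjusted p = 0.0578), neither of which passed. A second probe set (11761622_x_at) read 8.84 and 8.8 in control, 9.25 and 9.21 in sgBAP1, 9.16 and 9.1 in IR, and 9.27 and 9.37 in sgBAP1 + IR, and it rose against control in each of these 3 groups (0.41, 0.31 and 0.51). On this probe set sgBAP1 + IR was highest, whereas sgBAP1 was highest on the brightest one. The third and dimmest (11761621_at) was higher than control in each group by 0.21 to 0.28 without passing. The probe set that names TIPIN together with RPL9 and its pseudogenes (11715237_s_at) changed by 0.08 ± 0.08 with sgBAP1 and was not used for TIPIN.

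The RefSeq promoter windows of the 3 members with the widest changes are given for the 250 bases before the annotated start, 5' to 3' on the gene's strand. Capitals mark CCAAT, the letters of the NF-Y box, and TTTCCCGC, TTTGGCGC or TTTCGCGC, letters bound by E2F factors, each on either strand. The windows are TIMELESS (GRCh38.p14, chr12:56449427-56449676, minus strand), TIPIN at its 2 annotated starts (chr15:66356686-66356935 and chr15:66386718-66386967, minus strand) and CDC25A (chr3:48188418-48188667, minus strand).
TIMELESS: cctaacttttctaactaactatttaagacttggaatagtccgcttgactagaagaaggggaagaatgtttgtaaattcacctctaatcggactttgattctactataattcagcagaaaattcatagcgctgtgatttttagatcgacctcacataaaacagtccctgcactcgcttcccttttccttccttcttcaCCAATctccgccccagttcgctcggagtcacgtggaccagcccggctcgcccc
TIPIN start 1: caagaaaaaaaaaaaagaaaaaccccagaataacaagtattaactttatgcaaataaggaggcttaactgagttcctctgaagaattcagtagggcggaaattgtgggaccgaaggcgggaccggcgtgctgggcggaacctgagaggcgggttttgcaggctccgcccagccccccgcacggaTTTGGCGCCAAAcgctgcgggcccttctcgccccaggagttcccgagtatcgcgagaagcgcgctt
TIPIN start 2: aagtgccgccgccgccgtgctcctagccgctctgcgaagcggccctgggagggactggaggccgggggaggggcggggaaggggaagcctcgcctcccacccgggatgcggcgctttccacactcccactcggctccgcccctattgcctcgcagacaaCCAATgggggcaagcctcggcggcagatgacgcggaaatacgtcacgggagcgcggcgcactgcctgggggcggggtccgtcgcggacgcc
CDC25A: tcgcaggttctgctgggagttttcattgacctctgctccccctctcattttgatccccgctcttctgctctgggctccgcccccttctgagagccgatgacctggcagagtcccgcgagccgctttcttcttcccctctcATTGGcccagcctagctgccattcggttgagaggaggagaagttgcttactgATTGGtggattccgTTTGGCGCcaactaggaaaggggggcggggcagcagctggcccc

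The TIMELESS window held a CCAAT 53 bases before the start and none of the E2F letters. The first TIPIN window held TTTGGCGC 66 bases before the start, overlapped by the same letters on the other strand, and the second a CCAAT 91 bases before it. The CDC25A window held TTTGGCGC 44 bases before the start and CCAAT on the other strand at 58 and 110 bases. Of the 13 windows found for 9 members, 4 held any of the E2F letters (TIPIN, CLSPN, CDC25A and TOPBP1), against 2.74% of all 35116 RefSeq windows of 300 bases, and 10 held CCAAT (7 members), against 34.6%. Windows of 1 gene can overlap. These matches are descriptions of letters: the 4 members with E2F letters included TIPIN, which rose after IR, CDC25A, which fell, and CLSPN and TOPBP1, which did not pass. No binding was measured on these arrays.

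**Figure D2:**
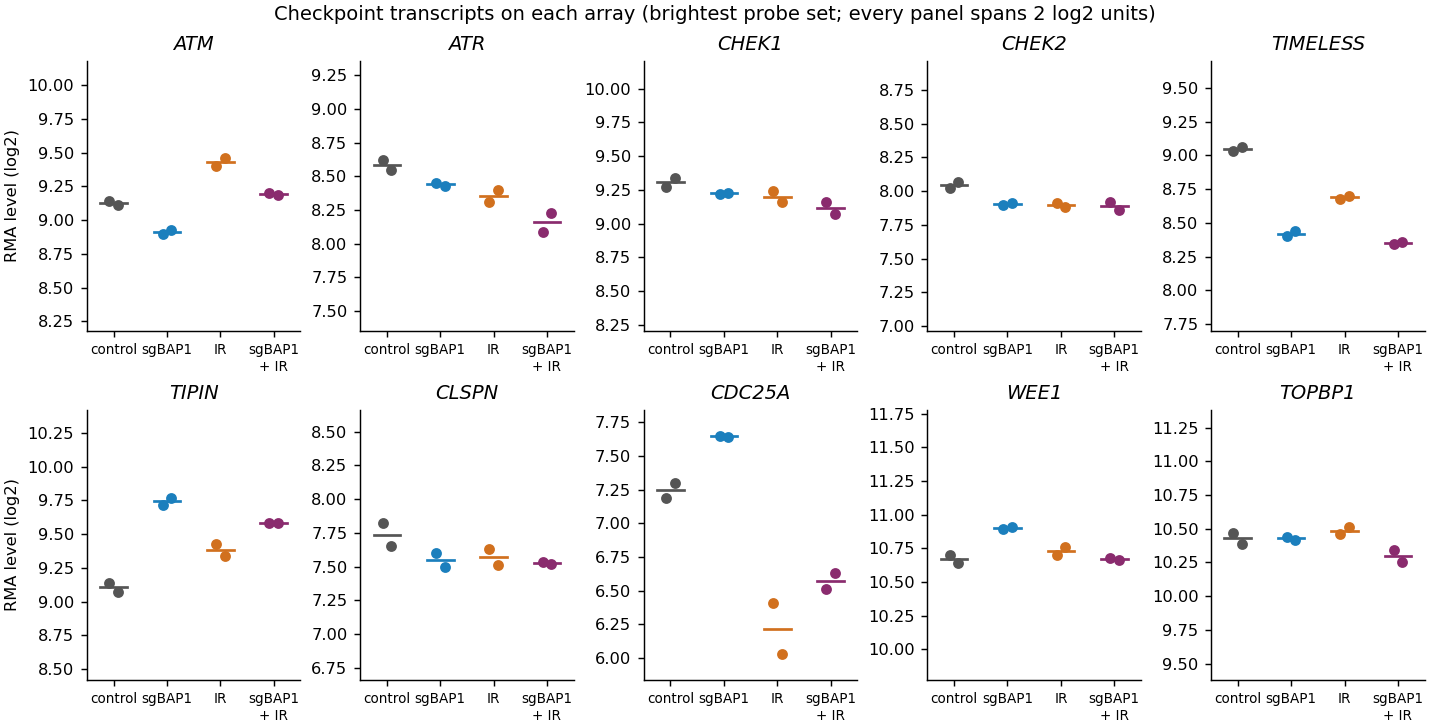
RMA level (y axis, log2) of the brightest probe set of each checkpoint gene on all 8 arrays; points are arrays, bars are group means and every panel spans 2 log2 units. TIMELESS is highest in control at 9.03 and 9.06 and TIPIN lowest there at 9.14 and 9.07, while CDC25A drops to 6.41 and 6.03 after IR.

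The 2 apical kinases did not follow each other. ATM (11720014_a_at) read 9.14 and 9.11 log2 in control, 8.9 and 8.93 in sgBAP1, 9.4 and 9.46 in IR, and 9.2 and 9.19 in sgBAP1 + IR. The 4 groups did not overlap: sgBAP1 was lowest, control and sgBAP1 + IR lay next to each other, and IR was highest. ATM rose with IR in wildtype cells (0.31 ± 0.05, adjusted p = 0.00796) and in sgBAP1 cells (0.28 ± 0.05, adjusted p = 0.00988), and it fell with sgBAP1 in untreated cells (-0.21 ± 0.05, adjusted p = 0.0225) and in irradiated cells (-0.23 ± 0.05, adjusted p = 0.025). Against control, sgBAP1 + IR gave 0.07 (95% interval -0.05 to 0.19). All ATM changes were under 1.5-fold. The sgBAP1 change ranged from -0.22 to -0.2 and did not pass when any control or sgBAP1 array was left out, and in irradiated cells it ranged from -0.27 to -0.2 and did not pass without any one of the 4 irradiated arrays. The IR change was not called without IR replicate 2 (0.27), and that in sgBAP1 cells not without replicate 1 of sgBAP1 (0.27) or of sgBAP1 + IR (0.28).

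The 5 ATM probe sets did not all run the same way. A second one (11751874_a_at, 7.98 and 7.91 in control, 8.19 and 8.16 in IR) rose with IR (0.23 ± 0.05, adjusted p = 0.0247) and was lower with sgBAP1 in irradiated cells (-0.26 ± 0.05, adjusted p = 0.0175). The dimmer 11720013_a_at read 5.56 and 5.43 in control and 5.78 and 5.9 in sgBAP1, and it rose with sgBAP1 (0.34 ± 0.07, adjusted p = 0.0109), opposite to the brightest. IR in sgBAP1 cells raised the brightest ATM probe set alone, and the other 4 changed by 0.13, 0.12, -0.23 and 0 without passing. With the mean of all ATM probe sets the sgBAP1 change was -0.01 in untreated and -0.18 in irradiated cells, and the IR change in sgBAP1 cells was 0.06. None of these passed.

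ATR (11743838_a_at, its 1 probe set) read 8.62 and 8.55 in control, 8.45 and 8.43 in sgBAP1, 8.31 and 8.4 in IR, and 8.09 and 8.23 in sgBAP1 + IR. Every group lay below control and sgBAP1 + IR was lowest, with no overlap between groups. ATR fell in sgBAP1 + IR against control (-0.42 ± 0.07, adjusted p = 0.00312, 1.34-fold) in the full set and without any single array. It fell with IR in sgBAP1 cells (-0.28 ± 0.07, adjusted p = 0.03), a call lost without sgBAP1 replicate 1 (-0.27), sgBAP1 replicate 2 (-0.29) or sgBAP1 + IR replicate 1 (-0.21). The changes with sgBAP1 alone (-0.14, 95% interval -0.3 to 0.02) and with IR alone (-0.23, -0.39 to -0.07, adjusted p = 0.0607) did not pass. The interaction was -0.05, with an interval of -0.28 to 0.18.

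The checkpoint kinase CHEK1 (11745948_a_at) read 9.27 and 9.34 in control, 9.22 and 9.23 in sgBAP1, 9.24 and 9.16 in IR, and 9.16 and 9.07 in sgBAP1 + IR. Control was highest, and IR overlapped sgBAP1 and touched sgBAP1 + IR at 9.16. CHEK1 fell in sgBAP1 + IR against control (-0.19 ± 0.06, adjusted p = 0.0469), and this call was lost when any of the 8 arrays was left out (-0.24 to -0.14). Of the 6 CHEK1 probe sets 5 fell in this comparison, by log2 changes of -0.28 to -0.17. Of these, 11759013_at read 9.23 and 9.23 in control, 9.05 and 9.01 in sgBAP1, 9.31 and 9.25 in IR, and 9.06 and 9 in sgBAP1 + IR. This probe set separated the arrays by genotype and not by IR, with -0.21 ± 0.05 for sgBAP1 in untreated cells (adjusted p = 0.0275) and -0.25 ± 0.05 in irradiated cells (adjusted p = 0.023). With IR alone 1 other CHEK1 probe set fell (11738250_at, -0.19 ± 0.05, adjusted p = 0.033).

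CHEK2 (11755467_x_at), the kinase downstream of ATM, read 8.02 and 8.07 in control and between 7.86 and 7.92 on the other 6 arrays. Its changes against control were -0.14 (95% interval -0.26 to -0.01) with sgBAP1, -0.15 (-0.27 to -0.02) with IR and -0.15 (-0.27 to -0.03) with both, and none passed the adjusted threshold (adjusted p = 0.1, 0.104 and 0.0628). All 3 passed when dim probe sets were left out. The second CHEK2 probe set (11753669_x_at) was dimmer, at 5.64 to 5.94 on the 8 arrays. It changed by -0.07 with sgBAP1, 0.05 with IR and -0.08 with both, with overlapping groups, and did not pass. A probe set that names CHEK2 together with 3 uncharacterized loci (11721893_a_at), not counted as a member, read 7.93 and 7.89 in control and 7.69 and 7.62 in sgBAP1 + IR (-0.25 ± 0.05, adjusted p = 0.0091).

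The mediator CLSPN and the ATR activator TOPBP1 passed in none of the 6 comparisons in the limma fit of all arrays. CLSPN (11754044_at) read 7.82 and 7.65 in control, 7.6 and 7.5 in sgBAP1, 7.63 and 7.51 in IR, and 7.53 and 7.52 in sgBAP1 + IR. The higher control array stood above all others, and the lower one lay close to the highest IR array. Its change with both was -0.21 (95% interval -0.39 to -0.03, adjusted p = 0.0757), and it passed without control replicate 2 (-0.3), without dim probe sets and with a variance trend and robust estimates. The second CLSPN probe set (11736357_a_at) changed by -0.07 with sgBAP1, -0.08 with IR and -0.1 with both, and did not pass. TOPBP1 (11743824_s_at), the activator of ATR, read 10.47 and 10.39 in control, 10.44 and 10.42 in sgBAP1, 10.46 and 10.51 in IR, and 10.34 and 10.25 in sgBAP1 + IR. The first 3 groups overlapped and sgBAP1 + IR lay below them, at -0.13 against control (-0.27 to 0, adjusted p = 0.125). Its second probe set (11743823_at) lay between 9.5 and 9.59 on all 8 arrays. TOPBP1 passed in 4 comparisons with the variance trend and robust estimates.

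CDC25A, the phosphatase that both checkpoint kinases target for degradation, had the widest range. Its brightest probe set (11726757_s_at) read 7.19 and 7.3 in control, 7.65 and 7.64 in sgBAP1, 6.41 and 6.03 in IR, and 6.51 and 6.63 in sgBAP1 + IR. All 4 irradiated arrays lay below all 4 untreated arrays. CDC25A fell with IR by 1.03 ± 0.12 on the log2 scale (2.04-fold, adjusted p = 0.00172), in sgBAP1 cells by 1.07 ± 0.12 (2.1-fold, adjusted p = 0.00154), and in sgBAP1 + IR against control by 0.67 ± 0.12 (1.59-fold, adjusted p = 0.00442). These 3 calls held without any single array. It rose with sgBAP1 (0.4 ± 0.12, adjusted p = 0.045), a call lost without any one control, sgBAP1 or sgBAP1 + IR array (0.35 to 0.45). In irradiated cells the sgBAP1 difference was 0.36 (95% interval 0.08 to 0.63, adjusted p = 0.0852). It passed without IR replicate 1 (0.55), with the mean of all probe sets (0.25) and with a variance trend and robust estimates (0.36).

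The other 2 CDC25A probe sets were dim, with control means of 4.84 and 4.54. One (11726756_a_at) read 4.71 and 4.38 in control, 5.37 and 5.29 in sgBAP1, 3.54 and 3.63 in IR, and 3.91 and 3.83 in sgBAP1 + IR. It followed the brightest, with 0.79 ± 0.11 for sgBAP1 (adjusted p = 0.00198), -0.96 ± 0.11 for IR (adjusted p = 0.00151) and -1.46 ± 0.11 for IR in sgBAP1 cells (adjusted p = 0.000319). Its irradiated arrays lay below the lower quartile of the arrays, where the size of a change is not well measured. The other (11726758_a_at) read 4.6 and 5.08 in control, 5.54 and 5.51 in sgBAP1, 4.92 and 4.76 in IR, and 4.9 and 4.97 in sgBAP1 + IR. It rose with sgBAP1 (0.69 ± 0.14, adjusted p = 0.0116) and fell with IR in sgBAP1 cells (-0.59 ± 0.14, adjusted p = 0.0279), but it read 0 ± 0.14 for IR in wildtype cells (95% interval -0.33 to 0.34). The IR fall of CDC25A in wildtype cells was thus called on 2 of 3 probe sets, 1 of them at such a low level, and the rise with sgBAP1 was called on all 3.

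WEE1 (11719047_s_at), the kinase that opposes CDC25 phosphatases, has 1 probe set, which read 10.7 and 10.64 in control, 10.89 and 10.91 in sgBAP1, 10.7 and 10.76 in IR, and 10.68 and 10.66 in sgBAP1 + IR. The sgBAP1 arrays stood above all others, which lay within 10.64 to 10.76. WEE1 rose with sgBAP1 (0.23 ± 0.05, adjusted p = 0.0159) and fell with IR in sgBAP1 cells (-0.24 ± 0.05, adjusted p = 0.0206), both under 1.5-fold. The first call was lost without control replicate 2 (0.21), sgBAP1 replicate 1 (0.24) or sgBAP1 replicate 2 (0.22), and the second without any one sgBAP1 or sgBAP1 + IR array (-0.25 to -0.22). With IR in wildtype cells WEE1 changed by 0.06 (95% interval -0.07 to 0.18).

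**Figure D3:**
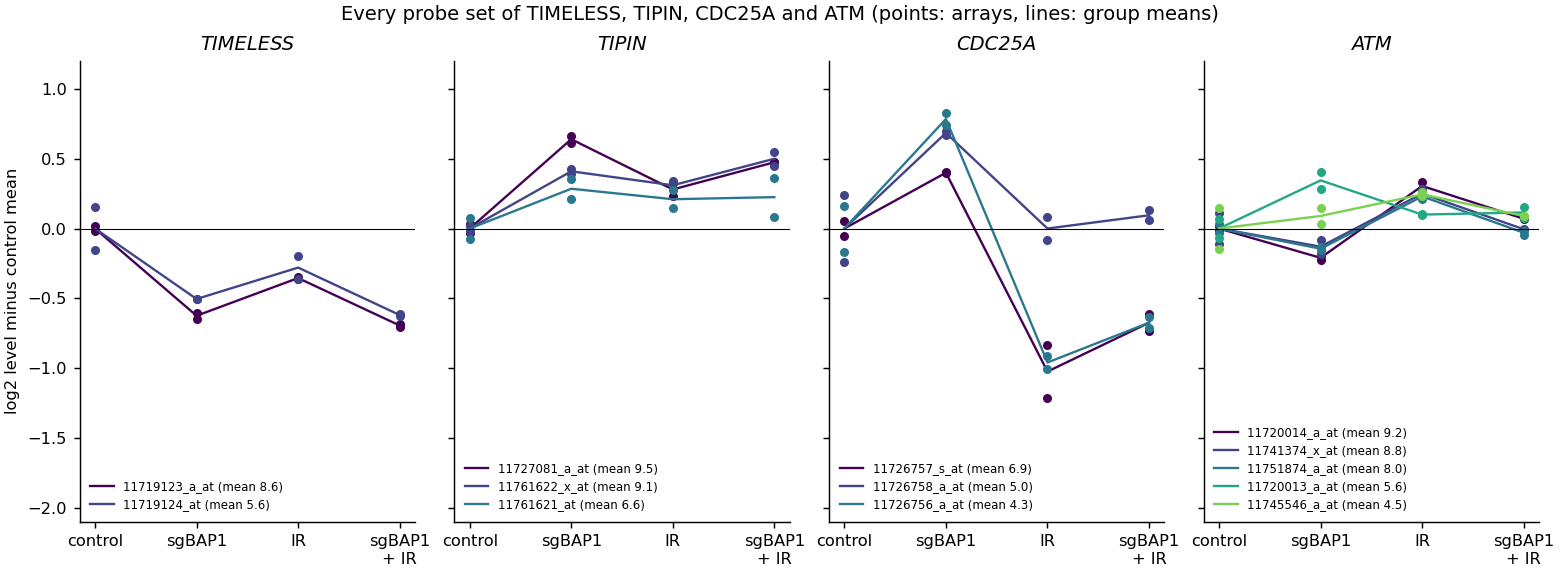
Every probe set of TIMELESS, TIPIN, CDC25A and ATM as the log2 level minus its control mean (y axis) in the 4 groups; points are arrays, lines join group means, and the legend gives each probe set with its mean level. The CDC25A probe set 11726758_a_at stays near 0 after IR where the other 2 fall to -1.03 and -0.96, and the ATM probe set 11720013_a_at rises with sgBAP1 where the brightest falls.

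The genes that work beside the members were counted in lists, each gene by its brightest probe set. Of 12 ATM side partners (break sensors, chromatin mediators and the chaperones of the kinase family), 4 fell with sgBAP1 and none rose: H2AX, the histone whose phosphorylation marks breaks (-0.38 ± 0.05), NBN of the break-sensing complex with MRE11 and RAD50 (-0.31 ± 0.05), the mediator MDC1 (-0.3 ± 0.06) and the acetyltransferase KAT5 (-0.26 ± 0.06). With IR 0 of 12 passed in limma, and 3 had an unadjusted p under 0.05, where the share of all genes was not counted. With both 6 fell, led by MDC1 (-0.45 ± 0.06), TTI2 (-0.42 ± 0.08) and KAT5 (-0.38 ± 0.06). The adjusted counts stand against 16.0% of all genes lower with sgBAP1, 19.8% passing in either direction with IR and 19.2% lower with both. The list median was -0.07, 0 and -0.19 in the 3 comparisons with control, against 0, 0 and 0.03 over all genes.

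Of 13 ATR side partners, 5 fell and 1 rose with sgBAP1. ETAA1, the second activator of ATR beside TOPBP1, fell by 0.62 ± 0.08 on the log2 scale (1.53-fold, adjusted p = 0.00137), and RHNO1, which works with the 9-1-1 clamp and TOPBP1, fell by 0.45 ± 0.05 (adjusted p = 0.00112). The replication kinase CDC7 (-0.32 ± 0.06), RPA3 of replication protein A (-0.31 ± 0.06) and the clamp loader RAD17 (-0.27 ± 0.05) fell too, whereas HUS1 of the clamp rose (0.36 ± 0.06). With IR 4 fell, namely ETAA1 (-0.4 ± 0.08), DBF4, the partner of CDC7 (-0.38 ± 0.05), RAD1 of the clamp (-0.36 ± 0.06) and RHNO1 (-0.28 ± 0.05). With both 7 of 13 fell, led by ETAA1 (-0.69 ± 0.08, 1.62-fold), RHNO1 (-0.52 ± 0.05) and CDC7 (-0.4 ± 0.06), and none rose. Of these 3 comparisons TOPBP1 itself passed in none. All-gene shares were 16.0% lower and 11.9% higher with sgBAP1, 10.6% lower with IR and 19.2% lower with both. List medians were -0.11, -0.18 and -0.23, against 0, 0 and 0.03 over all genes.

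Of 12 CDC25 and CDK effectors, 7 fell and 1 rose with IR. The mitotic kinase PLK1 (-0.64 ± 0.06, 1.56-fold), cyclin A2 (CCNA2, -0.49 ± 0.06) and the mitotic phosphatase CDC25C (-0.48 ± 0.06) led the falls, and cyclin E1 (CCNE1), which acts at S phase entry, rose (0.32 ± 0.05). With sgBAP1 3 fell (CCNA2 -0.49 ± 0.06, PLK1 -0.47 ± 0.06 and CDC25C -0.22 ± 0.06) and 2 rose (CCNE1 0.43 ± 0.05 and CCNE2 0.25 ± 0.06). With both 9 fell and 2 rose, CDC25B (0.56 ± 0.05) and CCNE1 (0.32 ± 0.05). Over all genes 10.6% were lower and 9.22% higher with IR, 16.0% and 11.9% with sgBAP1, and 19.2% and 17.4% with both. The 3 CDC25 phosphatases had different patterns. CDC25A was higher with sgBAP1 and lower after IR, CDC25C was lower in all 3 groups, and CDC25B was at 10.28 log2 in control and sgBAP1, 10.29 after IR and 10.84 with both, with an interaction of 0.54 ± 0.07 (adjusted p = 0.0368). PKMYT1, the other inhibitory kinase of CDK1 beside WEE1, did not rise with sgBAP1 (-0.11 ± 0.05, adjusted p = 0.173).

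Of the 9 feedback and recovery genes measured, GADD45A and the CDK inhibitor CDKN1A rose against control in all 3 groups. GADD45A changed by 2.14 ± 0.05 with sgBAP1, 1.01 ± 0.05 with IR and 1.97 ± 0.05 with both. Its interaction was -1.18 ± 0.07 (adjusted p = 0.0183). CDKN1A changed by 1.22 ± 0.06 with sgBAP1, 0.66 ± 0.06 with IR and 1.12 ± 0.06 with both, each past 1.5-fold, and its interaction was -0.76 ± 0.08 (adjusted p = 0.0218). Beside GADD45A and CDKN1A, RASSF1 (0.44 ± 0.06) and BTRC (0.21 ± 0.06), a ubiquitin ligase subunit that directs CDC25A and claspin to degradation, rose with sgBAP1, and USP7, a deubiquitinase known to act on claspin and CHEK1, fell (-0.22 ± 0.05). The phosphatase PPM1D, which switches ATM signaling off, fell with both (-0.33 ± 0.08). In this list 4 genes rose and 1 fell with sgBAP1, 2 rose with IR, and 3 rose and 3 fell with both. Over all genes 11.9% were higher and 16.0% lower with sgBAP1, 9.22% and 10.6% with IR, and 17.4% and 19.2% with both. List medians were 0.06, -0.1 and -0.02. Among the 4 other kinases of the ATM and ATR family, TRRAP, the member without kinase activity, fell with sgBAP1 (-0.29 ± 0.06) and MTOR with both (-0.19 ± 0.06). With IR 0 of 4 passed in limma. At an unadjusted p under 0.05, where the share of all genes was not counted, 1 did. Over all genes 27.9% passed with sgBAP1, 19.8% with IR and 36.6% with both. List medians of these 4 were -0.11, 0 and -0.07.

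Replication origin and fork genes make up the machinery that the TIMELESS-TIPIN dimer travels with. With sgBAP1 9 of 12 fell, led by the helicase subunits MCM6 (-0.97 ± 0.06, 1.96-fold) and MCM5 (-0.57 ± 0.11) and their partner CDC45 (-0.54 ± 0.05), and the origin loader CDC6 rose (0.27 ± 0.05). With IR 4 fell (GINS2 -0.43 ± 0.07, MCM2 -0.37 ± 0.06, CDT1 -0.29 ± 0.07 and CDC45 -0.28 ± 0.05). With both 11 fell, 5 of them past 1.5-fold, which 8.01% of all genes passed in either direction. Over all genes 16.0% were lower with sgBAP1, 10.6% with IR and 19.2% with both. List medians were -0.41, -0.13 and -0.54. In the same 3 comparisons TIMELESS fell and TIPIN rose. Of 6 proliferation markers 5 fell with IR: CENPF (-0.65 ± 0.06, 1.57-fold), BUB1 (-0.47 ± 0.06), MKI67 (-0.35 ± 0.05), CCNF (-0.25 ± 0.06) and TPX2 (-0.21 ± 0.05). With sgBAP1 2 fell (CENPF and TOP2A) and with both 3 (CENPF, BUB1 and TPX2), against the same all-gene shares. The mean level of the 6 markers was 10.78 log2 in control, 10.65 in sgBAP1, 10.43 after IR and 10.46 with both, and its part in the changes of CDC25A and the fork genes was not tested.

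**Figure D4:**
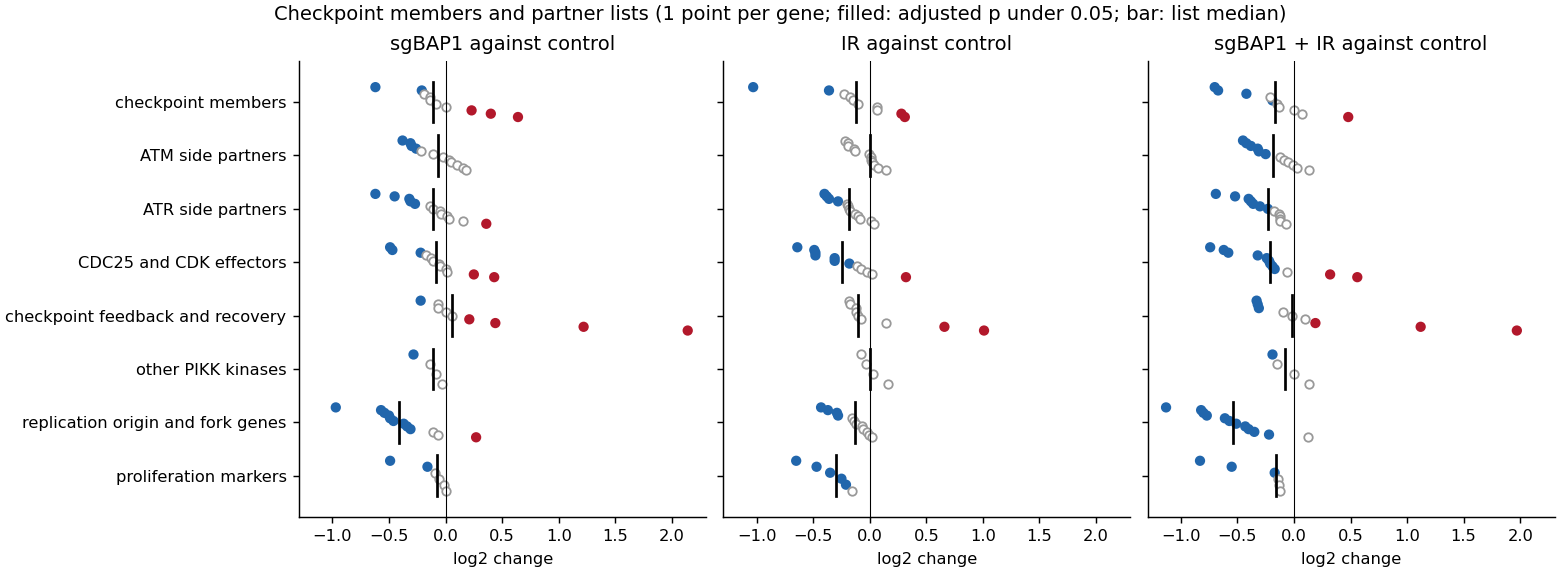
Log2 change against control (x axis) of the 10 members and the partner lists in sgBAP1, IR and sgBAP1 + IR; each point is a gene (points are spread vertically for legibility), filled where the limma adjusted p was under 0.05, and the bar is the list median. Replication genes have medians of -0.41 and -0.54 with sgBAP1 and with both, and ATM side partners a median of 0 with IR.

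As a description of profile shape, each member that passed in at least 1 comparison was set against 12966 other genes with a mean of at least 5 log2, by Pearson correlation over the 8 arrays, which fall in only 4 groups. TIMELESS was closest to NSMCE1 (r = 0.999), PRKCA (0.998) and IMPA2 (0.997), and TIPIN to PDRG1 (0.993), SLC2A11 (0.992) and COG5 (0.991). CDC25A was closest to DLX1 (0.992), PRCP (0.991) and PITPNC1 (0.988). ATM was closest to CRIP1 (0.996), ATR to AMOTL2 (0.991), CHEK1 to NVL (0.976) and WEE1 to PSTK (0.977). None of the 10 members was among the 3 closest genes of another, a ranking that counts an opposite profile as distant. Between members, r was -0.95 for ATM with CDC25A and -0.94 for TIMELESS with TIPIN. The highest positive r between members was 0.84, for CHEK2 with CHEK1 and with TIMELESS.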

How the data were processed

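The deposited values were log2 expression levels that the authors computed from 8 PrimeView arrays with RMA, which corrects background, quantile-normalizes the arrays and summarizes probes. Low signals are therefore compressed. Levels of different probe sets were set side by side to pick the brightest, to mark dim ones and to describe the cell type markers. They were not otherwise compared. The build behind the array annotation is not given in the sources used here. The 102 control probe sets were left out and 49293 tested. Groups came from the genotype and treatment labels. Linear models with 1 mean per group were fitted in limma 3.58.1 under R 4.3.3 (4 residual and 3.22 prior degrees of freedom, median SD 0.0787), with Benjamini-Hochberg adjustment per comparison and a threshold of 0.05. A gene was represented by its brightest probe set. From each partner list, up to 3 genes with the largest change among those passing in a direction were named for sgBAP1 and for IR. All were named where 5 or fewer passed in that direction. For sgBAP1 + IR not all such genes are named. The fit was tested on simulated data. Members and lists were chosen with earlier results of these data known. Alternatives covered normalization, dim probe sets, variance model, call rule, test and single arrays. Promoter windows came from RefSeq (GRCh38.p14) by symbol. WEE1 was not matched.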

Additional observations from a re-analysis of the deposited data

How the results depend on the processing

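Of 1098 values of single genes under 19 alternative settings, 963 kept their side of the threshold (28 of them, none of which passed, with the other sign), 100 lost a call, 33 gained one and 2 reversed. Both reversals concerned CDC25A without the probe sets marked _x_at and _s_at, which can bind other transcripts: the next brightest probe set then gave 0 for IR (-1.03 with the brightest) and 0.1 for sgBAP1 + IR (-0.67), and 3 of the 8 remaining genes passed in sgBAP1 + IR against 5 of 10. A fold over 1.5 was also required, with the adjusted p or with a limma p under 0.01, the methods' unadjusted threshold. Either gave 2 genes for sgBAP1, 1 for IR, 2 for both, 1 for IR in sgBAP1 cells and 0 for sgBAP1 in irradiated cells. Fitting only the groups compared gave 3, 3, 4, 2 and 1. The methods' t-test at a p under 0.05, without a fold rule, passed 6, 5, 5, 4 and 3 genes unadjusted, where the share of all genes was not counted. It passed 0 in each of the 5 comparisons after Benjamini-Hochberg adjustment, and it was not run for the interaction. Leaving out dim probe sets gave 4 genes for sgBAP1 in irradiated cells and 2 for the interaction, and a variance trend with robust estimates gave 6 and 4. Shares of all genes were counted in the main fit alone, so none stands beside the counts under other settings. Leaving out 1 array in turn gave 2 to 5 genes for sgBAP1, 3 to 4 for IR, 4 to 5 for both, 1 to 4 for IR in sgBAP1 cells, 1 to 2 for sgBAP1 in irradiated cells and 0 for the interaction. The lone array left in a group was then assumed to vary like the others. No paired analysis was possible because no replicate number occurs in more than 1 group's labels. With 2 arrays per group, precision is limited by their number, and the dim CDC25A probe sets lie near the lower quartile of the arrays.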
